A study of Mus musculus with 2 samples.

Results

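The 7 genes Cdk5rap1, Armc3, Slc14a1, Arhgef10, Gm26870, Gm10073 and Gm10076 were followed across the immune cells of B16 tumors, out of 27998 genes counted. They were chosen on these data, for a large difference in B cells and naive T cells between a library from h219-LLG-treated mice and one from mice given the control antibody. What their values show in those cells is therefore a description, and no test was made on it. Both libraries held live mouse CD45+ cells sorted from subcutaneous B16 melanomas of mice aged 6 to 8 weeks. All mice were VAVcre+/-hLAIR1+/- mLAIR1-/- on the C57BL/6 background, so that human LAIR1 was driven in hematopoietic cells by Vav-cre and the mouse receptor was absent in both groups. Antibody was given intravenously at 10 mg/kg from day 5 after tumor injection, every 4 days for 3 doses, and the tumors were taken at day 16. h219-LLG is a humanized antibody that blocks LAIR1, an inhibitory receptor of immune cells that binds collagen. There was 1 library for each antibody, and how many mice stood behind each was not stated. The antibody thus cannot be told apart from the mice, the sort or the library preparation, and every interval below covers counting error only.

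The genes have little known function in common. Cdk5rap1 encodes an enzyme that adds a methylthio group to transfer RNAs, mainly in mitochondria, where the modified base helps the ribosome read codons accurately. Slc14a1 encodes the urea transporter UT-B, known from red cells and the vessels of the kidney medulla. Arhgef10 encodes a guanine nucleotide exchange factor best known from peripheral nerve. Armc3 encodes an armadillo repeat protein known mainly from cilia and sperm. Gm26870 is a predicted long noncoding RNA. Gm10073 and Gm10076 are predicted genes whose transcripts nearly repeat those of Rplp1 and Rpl41, which encode proteins of the large ribosomal subunit and are among the most abundant messages of any cell.

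The sequences that set Gm10073 and Gm10076 apart from their parents are shown first, because they are the bases in which the aligned transcripts differ. How reads that cover none of them were counted, if at all, was not tested. In the GENCODE vM21 annotation of mm10, Gm10073 is protein coding and covers 106572966 to 106573461 of chromosome 8, and Gm10076 is a lincRNA that covers 105681828 to 105682211 of chromosome 14. The 496-base transcript of Gm10073 was aligned without gaps to Rplp1 and differed at 6 positions (98.8% identity). These are C123T, A167G, C359T, A360G, C372T and T480C, with the Rplp1 base first, the position counted from 1 at the 5′ end of its transcript, and the Gm10073 base last. The 383 aligned bases of Gm10076 differed from Rpl41 at 2 positions, C317T and G424A, counted in the same way (99.5% identity). The following 25-base windows of GENCODE vM21 (mm10) are given 5′ to 3′ on the transcript strand, with the differing bases in capitals.
Gm10073 near its 3′ end: tgttaagttggcCaataaagagctg
Rplp1 at the same place: tgttaagttggcTaataaagagctg
Gm10073 within its middle cluster: tggtgctgctcTGtccactgccgcT
Rplp1 at the same place: tggtgctgctcCAtccactgccgcC
Gm10076 at its second difference: tagacctggaacAtcacctcgccgc
Rpl41 at the same place: tagacctggaacGtcacctcgccgc
Each of these windows was found in the transcripts of 1 gene only. The last difference of Gm10073 lies 19 bases from the transcript's 3′ end, and that of Gm10076 lies 150 bases from it. Of all 100-base windows of the alignment, 69.8% for Gm10073 and 70.4% for Gm10076 covered at least 1 difference, and the remaining windows were identical in copy and parent.

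The h219-LLG library held 8807 barcodes and the control library 6133, of which 7433 and 5607 were kept with at least 200 genes, at least 500 unique molecules (UMIs) and less than 10% mitochondrial UMIs. Median depth of the kept barcodes was 5050 and 5796 UMIs, in the same order, and 13 barcode sequences occurred in both libraries. At least 10% mitochondrial UMIs were found in 15.2% and 8.17% of barcodes, and Ptprc, which encodes CD45, was detected in 93.6% and 93.5% of kept barcodes. Cells were gated by UMIs of marker genes, which gave 2333 and 1716 B cells, 669 and 551 CD4 naive T cells, and 1433 and 875 CD8 naive T cells. In B cells, 4 B cell markers summed to 3767 and 3516 CPM (UMIs of the gene with those of the gate scaled to a common total). They summed to 8.76 and 4.62 CPM in CD4 naive T cells and to 14.96 and 8.97 CPM in CD8 naive T cells.

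RNA of other cell types was not equal in the libraries' gates, and it differed in both directions. The sum of 4 melanoma markers was lower with h219-LLG, with ratios of 0.576 in B cells, 0.394 in CD4 and 0.609 in CD8 naive T cells. The interval of the last, 0.326 to 1.125, included 1. Erythroid markers were lower with h219-LLG in CD4 and CD8 naive T cells, with ratios of 0.298 and 0.522. Other sets were higher. In B cells the 3 CD3 genes, all above 0, summed to 17.3 CPM with h219-LLG and 5.16 CPM with control, and 5 erythroid markers to 2909 and 1899 CPM. In CD8 naive T cells 5 neutrophil markers, none at 0, summed to 424 CPM with h219-LLG and 4.12 CPM with control, and all 5 were higher with h219-LLG. The same markers in CD4 naive T cells summed to 10.8 and 2.57 CPM, with 2 of 5 at 0 in each library. Their part in the results was measured only as far as cells with any UMI of another type's markers could be left out, which kept 67.3% and 65.7% of B cells, 65.6% and 65.2% of CD4 naive T cells, and 49.6% and 49.6% of CD8 naive T cells. Without those cells the ratio of Armc3 was 4.07 in B cells and 1.43 in CD8 naive T cells, and that of Arhgef10 was 0.301 in CD4 naive T cells and 0.185 in CD8 naive T cells. The values for Cdk5rap1, Slc14a1 and Gm26870 are given beside their results.

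Each of the 7 genes had at least 50 UMIs over both libraries in all 3 resting gates. In B cells, 5 of the 7 were at least 2-fold higher with h219-LLG and 1 at least 2-fold lower. Of the 9106 genes with at least 50 UMIs there, 1.38% were at least 2-fold higher and 0.813% at least 2-fold lower. Among CD4 naive T cells 4 were higher and 2 lower, against 1.50% and 1.54% of 7518 genes. Among CD8 naive T cells 4 were higher and 2 lower, against 2.07% and 1.26% of 8759 genes. Since the genes were chosen for this contrast, nothing follows from the counts themselves.

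**Figure D1:**
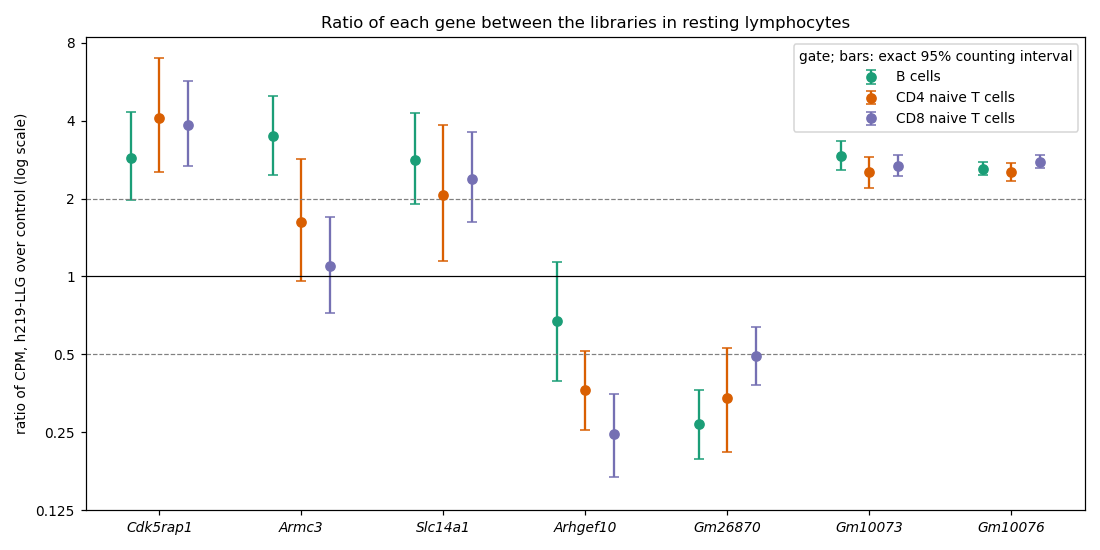
Ratio of CPM, h219-LLG over control, of the 7 genes in B cells, CD4 naive T cells and CD8 naive T cells (log axis). Points are the ratios, bars their exact 95% counting intervals, the solid line is equality and dashed lines mark 2-fold; Armc3 falls from 3.48 in B cells to 1.10 in CD8 naive T cells, while Gm10073 and Gm10076 stay between 2.52 and 2.92.

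Cdk5rap1 (ENSMUSG00000027487; chromosome 2, 154335380 to 154373010) was higher with h219-LLG in all 3 gates. In B cells it was counted at 13.4 CPM (120 UMIs, exact Poisson 95% interval 11.1 to 15.99) with h219-LLG and 4.64 CPM (36 UMIs, 3.25 to 6.43) with control, a ratio of 2.88 (1.97 to 4.31). CD4 naive T cells held it at 22.2 and 5.39 CPM, a ratio of 4.11 (2.53 to 6.97). CD8 naive T cells held it at 19.8 and 5.15 CPM, a ratio of 3.85 (2.67 to 5.71). The control level hardly moved between the gates, and the level with h219-LLG was higher in naive T cells than in B cells. With cells holding markers of other types left out, the ratio in CD8 naive T cells was 6.05. The UMIs were spread thinly over cells. As deposited, 11.4% of h219-LLG and 3.89% of control CD8 naive T cells had a UMI of Cdk5rap1, and at an equal depth of 2000 UMIs per cell the expected shares were 3.95% and 1.02%. No cell of the 3 gates held more than 3 UMIs.

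Most other tRNA modification genes did not pass 2-fold. Of the 14 others measured in B cells, ratios ran from 0.701 to 2.03 with a median of 1.02, and only Nsun3, a mitochondrial tRNA methyltransferase, passed 2-fold, at 9.14 and 4.51 CPM (ratio 2.03, 1.35 to 3.10). Cdkal1, the paralog that modifies cytosolic tRNA, was at 29.5 and 30.6 CPM there, a ratio of 0.967. Trit1, which attaches an isopentenyl group to the base that Cdk5rap1 then modifies, was at 10.1 and 12.3 CPM, a ratio of 0.828. Among CD4 naive T cells 10 others ran from 0.720 to 2.17, and Elp3, a subunit of the Elongator complex, passed 2-fold at 13.4 and 6.17 CPM. In CD8 naive T cells none of 13 others passed 2-fold, and they ran from 0.552 to 1.71.

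Armc3 (ENSMUSG00000037683; chromosome 2, 19199302 to 19310241) passed 2-fold in B cells alone among the resting gates. It was counted at 18.8 CPM (169 UMIs, 16.1 to 21.9) with h219-LLG and 5.41 CPM (42 UMIs, 3.90 to 7.32) with control in B cells, a ratio of 3.48 (2.47 to 5.00). In CD4 naive T cells it was at 10.1 and 6.17 CPM, a ratio of 1.63 (0.956 to 2.83), and in CD8 naive T cells at 6.32 and 5.74 CPM, a ratio of 1.10 (0.720 to 1.70). The control levels of the 3 gates lay between 5.41 and 6.17 CPM, and the h219-LLG level of B cells stood above them all. The intervals of the ratio in B cells and in CD8 naive T cells did not overlap. The genes were chosen on the values of these gates, so this is a description and no test of a difference between cell types. At 2000 UMIs per cell, 3.39% of h219-LLG and 0.9798% of control B cells were expected to show a UMI of Armc3. The 9 other armadillo repeat genes measured in B cells, named for the same protein fold, had ratios from 0.778 to 1.35, and none passed 2-fold. Armc9 was the only other one of the family to pass 2-fold in a resting gate, at 4.64 and 12.8 CPM in CD4 naive T cells.

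Slc14a1 (ENSMUSG00000059336; chromosome 18, 78100091 to 78142119) was higher with h219-LLG in the 3 resting gates. It was counted at 12.4 CPM (111 UMIs, 10.2 to 14.9) and 4.38 CPM (34 UMIs, 3.04 to 6.13) in B cells, a ratio of 2.82 (1.91 to 4.28). In CD4 naive T cells it was at 9.54 and 4.62 CPM, on 37 and 18 UMIs, a ratio of 2.06 (1.15 to 3.85). In CD8 naive T cells it was at 12.3 and 5.15 CPM, a ratio of 2.39 (1.62 to 3.60), which became 1.77 with cells holding markers of other types left out. Its level was nonetheless highest in NK cells, at 32.9 CPM (20.1 to 50.8) and 21.6 CPM (14.0 to 31.9), where the ratio was 1.52 and its interval of 0.803 to 2.86 included 1. Erythroid markers were at 2909 and 1899 CPM in B cells but at 14.2 and 47.5 CPM in CD4 naive T cells and at 13.5 and 25.9 CPM in CD8 naive T cells. Without B cells holding other types' markers, the ratio of Slc14a1 in B cells was 2.80. Slc14a2, its only paralog, did not reach 50 UMIs in any resting gate.

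Arhgef10 (ENSMUSG00000071176; chromosome 8, 14911663 to 15001085) was lower with h219-LLG in naive T cells and rare in B cells. It was counted at 12.1 CPM (47 UMIs, 8.90 to 16.1) with h219-LLG and 33.1 CPM (129 UMIs, 27.7 to 39.4) with control in CD4 naive T cells, a ratio of 0.366 (0.256 to 0.514). In CD8 naive T cells it was at 4.55 and 18.5 CPM, a ratio of 0.245 (0.168 to 0.351). In B cells it was at 3.12 and 4.64 CPM, on 28 and 36 UMIs, a ratio of 0.672 whose interval of 0.395 to 1.13 included 1. At 2000 UMIs per cell the expected shares with a UMI were 2.40% and 6.52% of CD4 naive T cells and 0.858% and 3.47% of CD8 naive T cells. Among CD8 effector and memory T cells it was found in 3 of 312 h219-LLG cells and 12 of 169 control cells. Of the other Arhgef genes measured, 8 in B cells, 8 in CD4 naive T cells and 9 in CD8 naive T cells, Arhgef4 alone passed 2-fold, upward in CD8 naive T cells at 4.43 and 1.62 CPM. Arhgef1, the most abundant of them, was at 208 and 225 CPM in CD8 naive T cells.

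Gm26870 (ENSMUSG00000097312; a lincRNA at the start of chromosome 9, 3000282 to 3038313) was lower with h219-LLG in the 3 resting gates and was unevenly spread over cells. In B cells it was at 6.35 CPM (57 UMIs, 4.81 to 8.23) and 23.6 CPM (183 UMIs, 20.3 to 27.3), a ratio of 0.269 (0.196 to 0.364). In CD4 naive T cells it was at 6.96 and 20.6 CPM, a ratio of 0.339 (0.210 to 0.530), and in CD8 naive T cells at 11.2 and 22.7 CPM, a ratio of 0.494 (0.381 to 0.639). A single control B cell held 41 UMIs, 22.4% of the control UMIs of that gate, and the fullest h219-LLG B cell held 5. With the fullest cell of each library left out the ratio was 0.316 in B cells and 0.527 in CD8 naive T cells, and without cells holding markers of other types it was 0.438 in B cells. At 2000 UMIs per cell, 0.961% of h219-LLG and 2.70% of control B cells were expected to show a UMI. Among B cells with at least 2 UMIs of Fcer2a and Cr2, markers of follicular B cells, it was at 3.27 and 28.5 CPM, and among the others at 9.16 and 18.3 CPM. The ratios of these subsets were 0.115 (0.0608 to 0.200) and 0.502 (0.334 to 0.746). They rest on 115 and 68 control UMIs and were not redone without the control B cell that held 41. The ratio of the subset that held this cell rests in part on it, so the subsets' difference cannot be read from these intervals. The 9 other predicted genes listed for this end of chromosome 9 did not reach 50 UMIs in any resting gate.

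Gm10073 and Gm10076 were higher with h219-LLG in every resting gate. Gm10073 was at 114 CPM (1021 UMIs, 107 to 121) and 38.9 CPM (302 UMIs, 34.7 to 43.6) in B cells, a ratio of 2.92 (2.57 to 3.33). It was at 185 and 73.5 CPM in CD4 naive T cells, a ratio of 2.52 (2.20 to 2.90), and at 222 and 82.8 CPM in CD8 naive T cells, a ratio of 2.68 (2.44 to 2.94). Gm10076 was at 500 CPM (4483 UMIs, 485 to 514) and 192 CPM (1486 UMIs, 182 to 202) in B cells, a ratio of 2.61 (2.46 to 2.77). It was at 551 and 218 CPM in CD4 naive T cells and at 639 and 230 CPM in CD8 naive T cells, ratios of 2.53 (2.34 to 2.74) and 2.77 (2.62 to 2.94). Both were found in far more cells than the other members. At 2000 UMIs per cell, 70.8% of h219-LLG and 36.3% of control CD8 naive T cells were expected to show a UMI of Gm10076, and 35.3% and 15.1% a UMI of Gm10073.

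**Figure D2:**
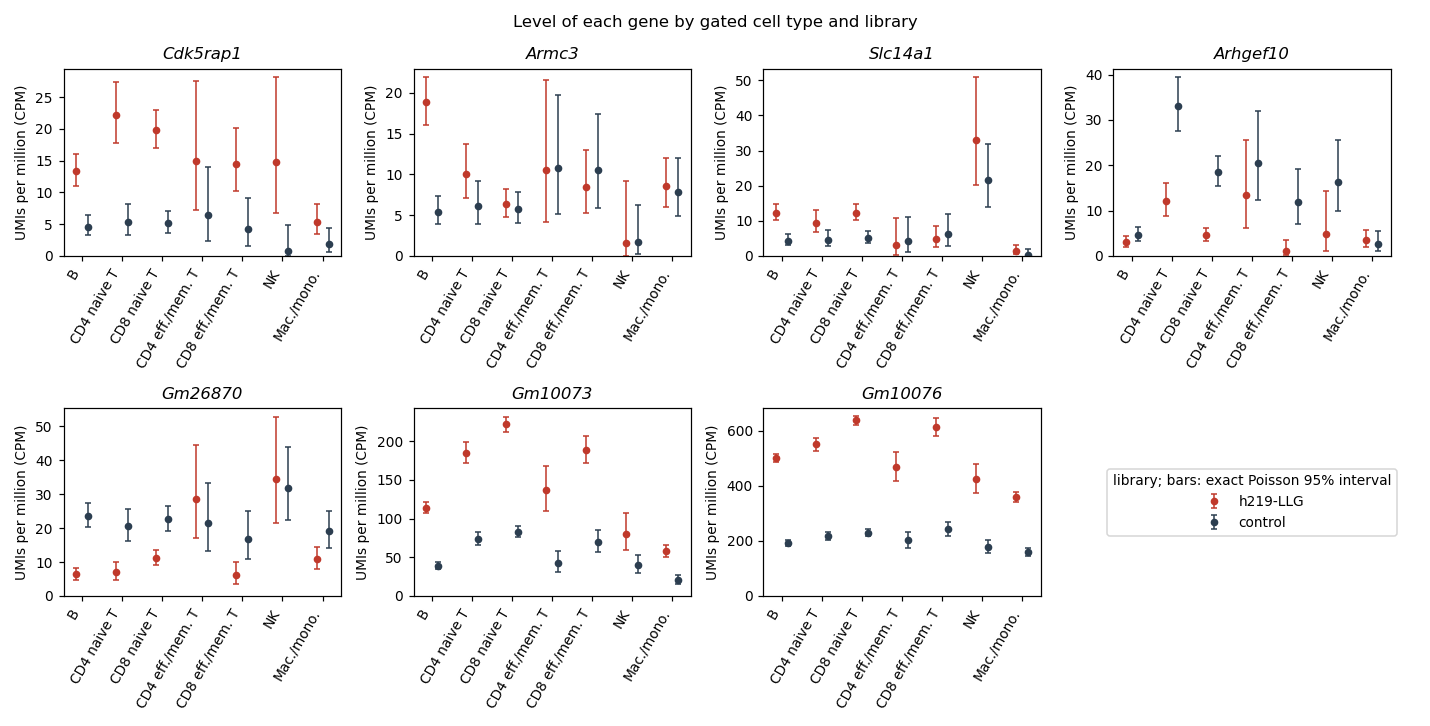
Level of each gene in CPM, from 0 on a linear axis of its own, in the 7 gates with at least 100 cells in each library. Points are levels from the summed UMIs of the gate in the h219-LLG (red) and control (dark) libraries and bars are exact Poisson 95% intervals; the libraries stay apart in every gate for Gm10073 and Gm10076, and overlap outside B cells for Armc3.

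The parents did not pass 2-fold. Rplp1 was at 5811 and 5691 CPM in B cells, 9287 and 9855 CPM in CD4 naive T cells, and 10547 and 11184 CPM in CD8 naive T cells, with ratios of 1.02, 0.942 and 0.943. Rpl41 was at 4634 and 4501 CPM in B cells, with a ratio of 1.03, and its ratios in CD4 and CD8 naive T cells were 1.01 and 0.987. None of the 83 ribosomal protein genes measured in each gate passed 2-fold, and their median log2 ratio was 0.05 in B cells, 0.03 in CD4 naive T cells and 0.02 in CD8 naive T cells, against 0.04, 0.04 and 0.05 over all genes measured.

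The copy's UMIs as a share of copy and parent together were nearly the same in every gate of a library. Gm10073 took 1.92% (exact 95% interval 1.81 to 2.04%) of Gm10073 and Rplp1 UMIs in B cells with h219-LLG and 0.680% (0.605 to 0.760%) with control. Over the 10 gates with at least 50 Gm10073 UMIs, the share ran from 1.69 to 2.46% with h219-LLG and from 0.516 to 0.831% with control. Gm10076 took 9.73% (9.46 to 10.0%) of Gm10076 and Rpl41 UMIs in B cells with h219-LLG and 4.08% (3.88 to 4.29%) with control. Over all 13 gates its share ran from 7.87 to 10.2% and from 3.49 to 4.68%. The ranges of the libraries did not overlap for either copy, while Rplp1 itself ran from 2966 to 10547 CPM with h219-LLG over the 10 gates used for Gm10073.

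**Figure D3:**
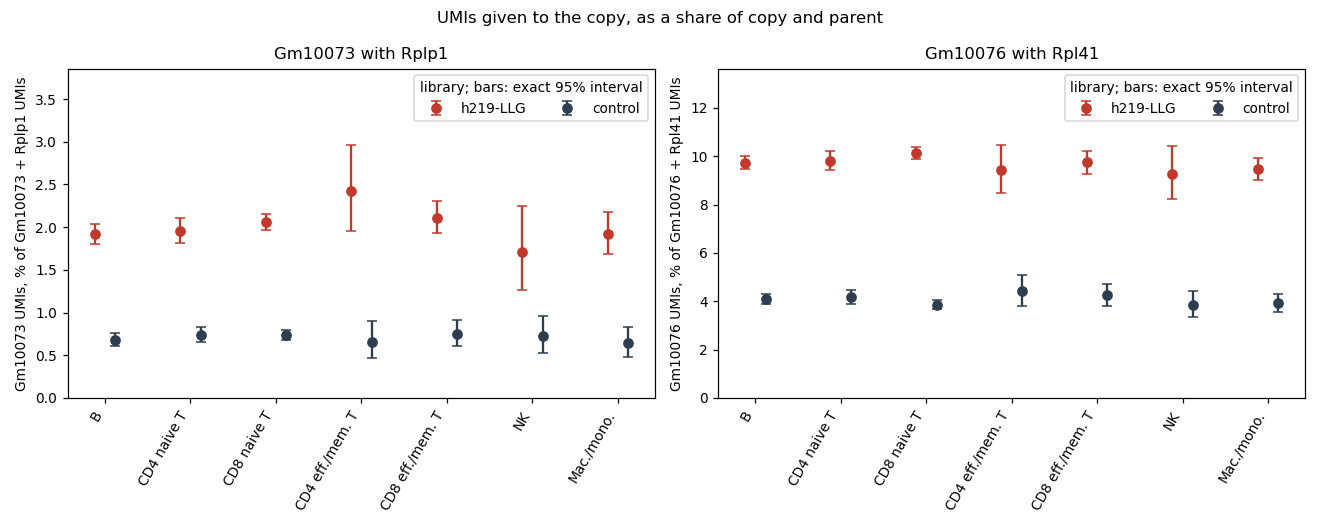
UMIs of Gm10073 as a percentage of Gm10073 and Rplp1 UMIs (left) and of Gm10076 as a percentage of Gm10076 and Rpl41 UMIs (right) in 7 gates, with exact 95% binomial intervals. In B cells the shares are 1.92% with h219-LLG (red) and 0.680% with control (dark) for Gm10073, and 9.73% and 4.08% for Gm10076, and the other gates sit near these values.

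Other near-identical copies of coding genes were listed after the values had been seen, as predicted or pseudogene symbols whose transcript matched that of another coding gene at 98% or more over at least 90% of its length. In B cells 25 copies, Gm10073 and Gm10076 included, had at least 50 UMIs. The 23 others had ratios from 0.720 to 2.28 with a median of 1.15, and 1 passed 2-fold. That was Gm8186, whose 231 aligned bases equal those of Snrpg, a core protein gene of the spliceosome. Gm8186 was at 55.8 and 24.5 CPM in B cells, 52.8 and 22.4 CPM in CD4 naive T cells, and 67.3 and 32.4 CPM in CD8 naive T cells, with ratios of 2.28, 2.36 and 2.08, whereas Snrpg had ratios of 0.859, 0.914 and 0.872. Among CD4 naive T cells 2 of 18 others passed 2-fold, Gm8186 and Gm10020, a copy of Rpl15, at 18.3 and 6.68 CPM. In CD8 naive T cells 1 of 21 others did, Gm8186, and the 21 ran from 0.696 to 2.08. Most such copies had ratios nearer to 1 than Gm10073 and Gm10076. These members were chosen for their difference in these same gates, so nothing follows from this comparison.

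**Figure D4:**
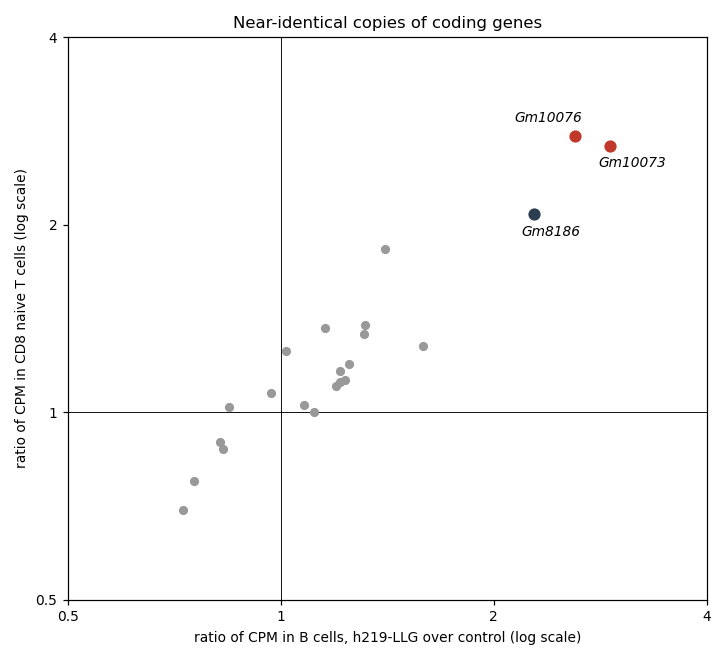
Ratio of CPM, h219-LLG over control, in B cells (horizontal) and CD8 naive T cells (vertical), both on log axes, for the 22 near-identical copies with at least 50 UMIs in both gates. Gm10073 and Gm10076 (red) and Gm8186 (dark) lie above 2 on both axes and the other copies (grey) do not.

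Outside the resting gates the genes fell into different patterns. Gm10076 was higher with h219-LLG in all 13 gates, including the melanoma cells that passed the sort, and at least 2-fold higher in 11. Its ratio ran from 1.77 in neutrophils, on 42 and 12 UMIs with an interval of 0.914 to 3.69 that included 1, to 2.83 in plasmacytoid dendritic cells. Gm10073 was at least 2-fold higher in all 10 gates with at least 50 UMIs, from 2.03 in NK cells to 4.90 in plasmacytoid dendritic cells. Cdk5rap1 had fewer than 50 UMIs in every other gate. It was at 14.5 and 4.22 CPM in CD8 effector and memory T cells, a ratio of 3.44 (1.43 to 9.98), and at 5.41 and 1.88 CPM in macrophages and monocytes, a ratio of 2.88 (1.06 to 9.73). Over all 2998 and 2465 kept cells outside the resting gates, those in no gate included, it was at 11.96 and 3.66 CPM, a ratio of 3.27 (2.54 to 4.25). These pooled cells differ in makeup between the libraries, which limits this ratio and those of the genes below over the same cells. Armc3 over those cells was at 8.04 and 6.66 CPM, a ratio of 1.21 with an interval of 0.969 to 1.51 that included 1. Slc14a1 was at 7.76 and 5.13 CPM there, a ratio of 1.51 (1.19 to 1.93). By gate its ratio went both ways. It was 0.763 (0.295 to 2.05) in CD8 and 0.696 (0.0630 to 4.86) in CD4 effector and memory T cells. In NK cells it was 1.52, and in macrophages and monocytes 3.93 (0.476 to 181) on 6 and 1 UMIs. All of these intervals included 1. Arhgef10 over all cells outside the resting gates was at 5.90 and 18.7 CPM, a ratio of 0.316 (0.260 to 0.382). Its highest level of any gate was in plasmacytoid dendritic cells, at 20.8 and 39.6 CPM. These were 37 and 98 cells with 7 and 46 UMIs, a ratio of 0.526 (0.201 to 1.17). In the gates outside the resting ones with at least 100 cells in each library, its ratio differed. It ran from 0.101 (0.0190 to 0.349) in CD8 effector and memory T cells to 1.31 (0.494 to 3.83) in macrophages and monocytes. Gm26870 over all cells outside the resting gates was at 9.11 and 25.6 CPM, a ratio of 0.356 (0.304 to 0.416). It was at 6.05 and 16.9 CPM in CD8 effector and memory T cells, a ratio of 0.358 (0.175 to 0.711), and in NK cells at 34.6 and 32.0 CPM, a ratio of 1.08 whose interval of 0.601 to 1.90 included 1. In the barcodes with at least 10% mitochondrial UMIs, which no gate used, 3 of the 6 members with at least 10 UMIs (Cdk5rap1, Gm10073 and Gm10076) were higher with h219-LLG beyond both counting intervals, as were 6.61% of 9362 genes. These barcodes came from the same libraries on which the members were chosen, so the count is not independent of that choice.

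In the order of levels with h219-LLG, Cdk5rap1 was highest in CD4 naive T cells, followed by CD8 naive T cells, and the intervals of this pair overlapped (17.7 to 27.4 and 17.0 to 23.0 CPM). Its macrophages and monocytes lay lowest of the 7 gates with at least 100 cells in each library, at 3.39 to 8.18 CPM. Armc3 with h219-LLG was highest in B cells among those 7 gates and lowest in NK cells, where 1 UMI was found. Slc14a1 was highest in NK cells in both libraries and, among those 7 gates, lowest in macrophages and monocytes, where 1.26% of h219-LLG and 0.343% of control cells had a UMI, at median depths of 8581 and 9350 UMIs. For no gated type is it certain that it lacks these genes, so no share of cells was set against a background type.

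The genes beside each member on its chromosome were compared in the same way. The 3 nearest measured genes on each side were taken, and on 1 side only for Gm26870, which lies at the start of its chromosome. Of the 117 values over the 3 resting gates none passed 2-fold, and ratios ran from 0.546 to 1.96. Some of these genes lay far away, up to 12800 kb from Gm10076, 3845 kb from Arhgef10 and 3630 kb from Armc3. The values thus do not describe the close surroundings of every gene. Near Cdk5rap1, Cbfa2t2 at a distance of 63.5 kb had ratios of 1.10, 1.15 and 0.787 in B cells, CD4 naive and CD8 naive T cells. Near Armc3, Pip4k2a had ratios of 0.984, 0.879 and 0.919, and near Slc14a1, Epg5 had ratios of 0.832, 1.91 and 0.863. Of the 6 neighbors of Arhgef10 in CD8 naive T cells, 2 were lower beyond their counting interval and 1 was higher. Kbtbd11, 9.94 kb away, was at 101 and 139 CPM (ratio 0.727, 0.663 to 0.797), 5830468F06Rik, 14.0 kb away, was at 20.8 and 35.5 CPM (ratio 0.588, 0.483 to 0.714), and Erich1, 821 kb away on the other side, had a ratio of 1.40 (1.16 to 1.71). The intervals of Cln8 (0.643, 0.398 to 1.04), Tdrp (0.898, 0.803 to 1.01) and Mcph1 (0.961, 0.720 to 1.29) included 1. Each was nearer to 1 than Arhgef10 itself, at 0.245.

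**Figure D5:**
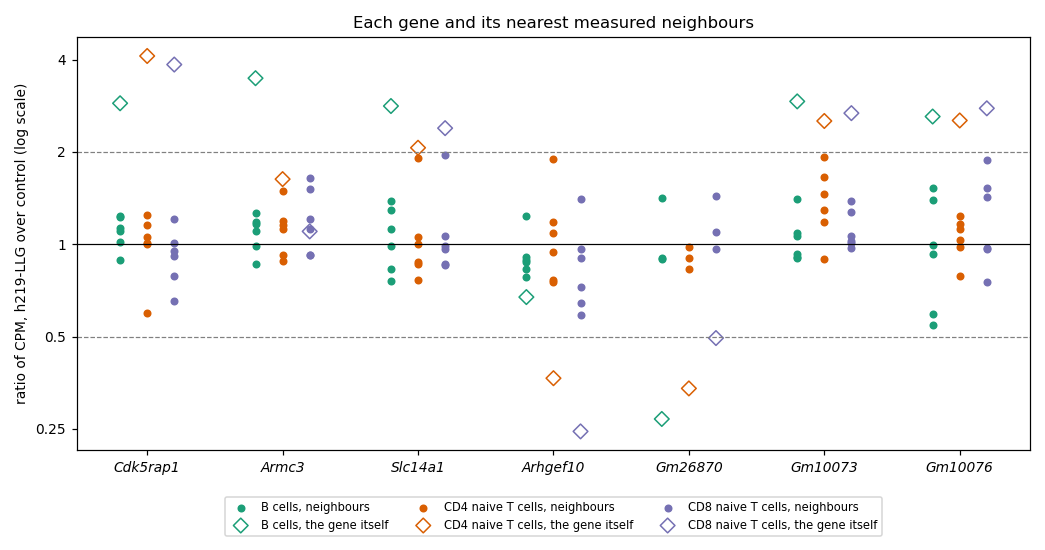
Ratio of CPM, h219-LLG over control (log axis), of each of the 7 genes (open diamonds) and of its nearest measured neighbors on the chromosome (filled points), by resting gate. All 117 neighbor values lie between 0.546 and 1.96, inside the dashed lines at 2-fold.

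Patterns over gates and libraries were compared by Pearson's r of log2(CPM + 1), among 10356 genes. The 19 points were the gates of either library with at least 50 cells in it, and they share libraries and depth. B cells and naive T cells of both libraries were among the points. The difference for which the members were chosen therefore enters each r, which is not a measure of cell type pattern alone. Gm8186 was the gene most like both Gm10073 (r = 0.927) and Gm10076 (r = 0.937), and these members were second to each other (r = 0.914). The next were Ddx27 for Gm10073 (r = 0.836) and Lsm7 for Gm10076 (r = 0.767). Cdk5rap1 was closest to AI606181 (r = 0.762), 3110056K07Rik (r = 0.761) and Gm10076 (r = 0.747). Slc14a1 was closest to Car2, a carbonic anhydrase (r = 0.870), followed by Tmsb15l and Dcp1b (r = 0.841 and 0.827). Armc3 was closest to Gm15441, Rffl and Tbk1 (r = 0.864, 0.848 and 0.824). Arhgef10 had r = 0.814 with Tprn and 0.812 with Ldlrad4. Gm26870 was closest to Fxr1, Pex13 and Sec62 (r = 0.807, 0.775 and 0.763). Armc3 and Slc14a1 had r = -0.27 with each other, and Arhgef10 and Gm26870, both lower with h219-LLG, had r = 0.575.

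Within a library, members were set against each other cell by cell, in 1 random draw of 2000 UMIs per cell. Among h219-LLG B cells, Cdk5rap1 was found in 2 of 80 cells with a UMI of Armc3 (2.50%) and in 2.66% of the cells without. Gm10073 was found in 21.2% of B cells with a UMI of Gm10076 and in 16.9% of those without, and in 36.0% and 35.9% of CD8 naive T cells. In control CD4 naive T cells, Arhgef10 was found in 3 of 17 cells with a UMI of Gm26870 and in 6.55% of the others, and in CD8 naive T cells in 0 of 25. The ratios were also taken at a low and a higher mitochondrial share. In resting cells with less than 3% mitochondrial UMIs, of which there were 296 and 449, Cdk5rap1 was at 22.9 and 6.22 CPM (ratio 3.68), Armc3 at 11.8 and 4.26 CPM (2.77), Arhgef10 at 4.86 and 21.9 CPM (0.222), Gm26870 at 11.1 and 36.3 CPM (0.306), Gm10073 at 194 and 66.1 CPM (2.94) and Gm10076 at 625 and 214 CPM (2.92). In the 4139 and 2693 cells at or above 3%, the ratios were 3.63, 2.03, 0.367, 0.416, 2.75 and 2.67. Slc14a1 was at 7.64 and 6.22 CPM below 3%, a ratio of 1.23 (0.528 to 2.72) on 11 and 19 UMIs, and at 12.1 and 4.42 CPM above it.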

How the data were processed

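The data were raw UMI counts per gene and barcode, made by the authors with Cell Ranger 5.0.0 on mm10 from 10x Genomics 3′ libraries, per the labels and the submitters' processing notes, and deposited with only called barcodes. Which version of the gene list was used is not stated. It held no immunoglobulin or T cell receptor genes, so no gamma-delta T cells were gated. Of the 27998 gene identifiers, 27645 (98.7%) matched GENCODE vM21.

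The members and lists were chosen with earlier results of these data known. Barcodes with at least 200 genes, 500 UMIs and less than 10% mitochondrial UMIs were kept. A gate took at least 2 UMIs of its lineage's markers. Cells with 2 or more UMIs of the core markers of 2 lineages (B, T, macrophage or melanoma) were left out of every gate, and no doublet caller was run. Naive T cells had at least 2 UMIs of naive markers (Ccr7, Lef1, Igfbp4, Dapl1 and another not reported here), more than of Nkg7, Ccl5, Cxcr3, Ctla4, Icos and Tnfrsf4, and none of Foxp3. The markers were set with the plan, but the UMI numbers and this comparison, which replaced the absence of effector markers, were set after seeing the data. Plasma and erythroid cells were not gated. Gates held 77.3% and 75.9% of kept barcodes.

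UMIs were summed per gate and library and divided by the sum (CPM). Each ratio divides the h219-LLG level by that of the control and has an exact binomial 95% interval of the split. Shares have Clopper-Pearson intervals. With 1 library per group no p-value was computed. Genes with at least 50 UMIs in a gate were measured. Named besides the members were neighbors past 2-fold or else nearest, near-identical copies, the 3 genes of most similar pattern and list genes past 2-fold, and not every such gene is printed. Kbtbd11, 5830468F06Rik, Cln8, Erich1, Tdrp, Mcph1, Cdkal1, Trit1 and Arhgef1 were named after their values were seen. Shares at equal depth are expectations over all draws of 2000 UMIs per cell (hypergeometric), which replaced a single random draw after that draw was seen to decide the values of rare genes. Cells with any UMI of another type's markers were left out as an alternative chosen after seeing the data. Copies were found with BLAST 2.17.0. The ratios and intervals were tested on simulated sums, and the thinning on cells of the control library. Python 3.11.15, numpy 2.4.6, scipy 1.17.1 and edgeR 4.0.16 (TMM) were used.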

Additional observations from a re-analysis of the deposited data

Results flagged for a closer look

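Barcodes with at least 10% mitochondrial UMIs, which no gate used, held 3 of the 7 genes at a higher level with h219-LLG beyond both counting intervals. Of the 9362 genes with at least 10 UMIs in these barcodes, a number that Armc3 with 8 UMIs did not reach, 6.61% met the same rule. Among the 1193 such barcodes with h219-LLG and 367 with control that had enough genes and UMIs, Cdk5rap1 was at 19.6 CPM (29 UMIs; 13.1 to 28.2) and at 0 of 640070 UMIs with control (0 to 5.76 CPM, where 3 counts would be 4.69 CPM). Gm10073 was at 50.03 CPM (39.3 to 62.8) and 14.1 CPM (6.43 to 26.7), and Gm10076 at 191 CPM (170 to 215) and 70.3 CPM (51.3 to 94.1). Each of these was singled out because its level in unused barcodes of the h219-LLG library lay above that of the control library. The genes had been chosen for a difference between these same libraries, so the unused barcodes are no independent check. Gm26870 was at 50.7 and 87.5 CPM in these barcodes, above its 8.81 and 24.2 CPM in kept barcodes of the same libraries.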

How the results depend on the processing

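Of 541 alternative values for 46 ratios of the 7 genes in 7 gates, 533 lay within the counting interval of the reported ratio and 8 did not, and no ratio past 2-fold changed direction. In the resting gates the 3 outside were Gm26870 in B cells, at 0.192 with 200 to 2500 genes and under 5% mitochondrial UMIs and at 0.438 without cells holding another type's markers, and Cdk5rap1 in CD8 naive T cells, at 6.05 without such cells. Armc3 in CD8 naive T cells, at 1.10, became 0.991 with 1 UMI of lineage markers. Slc14a1 in CD4 naive T cells was past 2-fold in 8 of 12 alternatives (1.76 to 2.23), and Gm26870 in CD8 naive T cells in 8 of 13 (0.445 to 0.599). Members past 2-fold numbered 5 to 7 over the resting gates and all alternatives. Scaling moved the median of all genes by less than 0.1 on the log2 scale.

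The numbers of genes past 2-fold depended on depth and on the count filter. In B cells, 126 higher and 74 lower became 17 and 28 at 1000 UMIs per cell, 54 and 41 at 2000, 598 and 250 with at least 10 UMIs, 17 and 34 with at least 200, and 2175 and 1454 with no filter, and the higher genes became 78 with 200 to 2500 genes and under 5% mitochondrial UMIs. In CD4 naive T cells, 113 and 116 became 5 and 33, 13 and 54, 550 and 336, 6 and 50, and 2018 and 1629, in the same order of the first 5 settings. In CD8 naive T cells, 181 and 110 became 15 and 34, 46 and 57, 669 and 284, 36 and 55, and 2381 and 1279. Fewer genes reach 50 UMIs at lower depth, and a lower filter admits genes whose ratio rests on few UMIs. Alternatives that left under 10 UMIs, or 0 in a library, gave no value. No paired analysis was possible because each antibody had 1 library.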
